A study of Mus musculus with 6 samples.

Results

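Smad4 peaks of the embryonic mouse limb that lie far from protein-coding genes are described here. From the autosomal Smad4 peaks of the limb, those were taken whose summit lay outside every protein-coding gene of RefSeq on the mm10 assembly and over 50 kb from the nearest gene start or end. This rule kept 3025 of 28474 peaks, or 10.6% (exact Clopper-Pearson 95% interval 10.27 to 10.99%), and the 4 lists of the series together hold 115325 autosomal peaks. The rule used positions only and no peak height. The stretch between neighbouring protein-coding genes is called a gene desert below, and its far part is what remains after 50 kb next to each gene is set aside.

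Smad4 is the shared partner of the receptor-activated Smads. BMP signals activate Smad1, Smad5 and Smad8, TGF-beta and activin signals activate Smad2 and Smad3, and either kind enters the nucleus with Smad4 and binds regulatory DNA together with tissue-specific factors. In the limb bud, BMP signalling patterns the digits, drives the condensation of cartilage and clears the tissue between the digits. Many genes that control limb development, among them Sox9 and the HoxD cluster, are known to be regulated by enhancers lying deep within neighbouring gene deserts.

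Chromatin immunoprecipitation followed by sequencing was performed on limbs and molar tooth germs of wild-type CD1 mice at E13.5, at mid-gestation. Limb Smad4 is set here beside limb pSmad1/5 (phosphorylated Smad1 and Smad5), molar tooth germ Smad4 and molar pSmad1/5. Each of these has 1 library, from whole tissue, and the 2 input samples were not used here. With 1 library per tissue and antibody no difference has a replicate check and no test was made, and all intervals cover counting error only, treating peaks as independent.

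Some far peaks fell on the promoter windows of long non-coding RNA (lncRNA) genes, whose reference sequence is at hand. Of the 3025 far peaks, 22 overlapped 23 such windows, each reaching from 250 bases before to 50 bases after the annotated start of the gene. The 4 windows below show the highest-scoring of these peaks (E130102H24Rik), a peak in each of the peak-rich deserts beside the cartilage gene Matn1 (Gm42321) and the forkhead gene Foxf1 (Gm33579), and a peak beside Wnt7b that holds a Smad-type motif (D130051D11Rik). The sequences are those of RefSeq on GRCm38.p6, run 5′ to 3′ on the strand of the gene, and have the bases of the called peak in capitals.
E130102H24Rik: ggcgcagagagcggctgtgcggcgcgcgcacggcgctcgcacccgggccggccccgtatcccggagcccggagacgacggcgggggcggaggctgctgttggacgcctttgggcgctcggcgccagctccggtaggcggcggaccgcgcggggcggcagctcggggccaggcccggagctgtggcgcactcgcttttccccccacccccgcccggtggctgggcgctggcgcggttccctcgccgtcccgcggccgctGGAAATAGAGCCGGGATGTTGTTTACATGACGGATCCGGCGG
Gm42321: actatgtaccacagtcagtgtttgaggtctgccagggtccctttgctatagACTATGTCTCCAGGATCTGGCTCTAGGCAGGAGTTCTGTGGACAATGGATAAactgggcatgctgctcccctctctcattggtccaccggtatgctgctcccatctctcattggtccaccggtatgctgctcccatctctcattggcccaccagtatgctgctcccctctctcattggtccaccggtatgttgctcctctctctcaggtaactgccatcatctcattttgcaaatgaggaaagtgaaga
Gm33579: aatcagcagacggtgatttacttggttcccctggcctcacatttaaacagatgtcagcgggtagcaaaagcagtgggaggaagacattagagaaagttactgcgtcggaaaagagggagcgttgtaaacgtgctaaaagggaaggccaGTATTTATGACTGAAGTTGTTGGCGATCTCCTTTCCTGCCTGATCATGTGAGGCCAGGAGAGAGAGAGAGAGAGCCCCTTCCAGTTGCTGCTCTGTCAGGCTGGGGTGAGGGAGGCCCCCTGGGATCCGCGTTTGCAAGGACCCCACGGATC
D130051D11Rik: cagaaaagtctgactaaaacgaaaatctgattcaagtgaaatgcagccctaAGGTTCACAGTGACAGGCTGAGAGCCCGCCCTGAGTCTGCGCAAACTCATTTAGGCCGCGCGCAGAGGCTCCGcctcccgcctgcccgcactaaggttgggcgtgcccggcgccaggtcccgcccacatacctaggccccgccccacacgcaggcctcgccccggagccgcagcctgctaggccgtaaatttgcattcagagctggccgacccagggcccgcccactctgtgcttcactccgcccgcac
The E130102H24Rik window lies at chr4:101356199-101356498 on the minus strand, between Jak1 and Ak4, and its peak had a score of 5.34 with the summit 60243 bp from the nearest protein-coding gene. The Gm42321 window (chr4:131710491-131710790, minus strand) holds a peak with a score of 4.47, and the Gm33579 window (chr8:121023568-121023867, minus strand) a peak with a score of 3.44. The D130051D11Rik window (chr15:85634346-85634645, plus strand) holds a peak with a score of 3.99, 52624 bp from the nearest protein-coding gene.

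Short motifs were searched on both strands of these windows, all of them sequences that Smads are known to bind. CAGAC was present in 14 of the 23 windows (60.9%), against 49.6% of all 31396 promoter windows and 51.7% of the 11311 lncRNA windows, and in 3 windows it lay inside the called peak. GGCGCC was present in 4 windows (17.4%), against 12.1% of all windows and 5.53% of lncRNA windows. Among these, the windows of Gm41414 and Gm52265 overlap on opposite strands and share the same peak, so they are not separate sites. The palindrome made of GTCT followed by AGAC was present in none, against 0.223% of all windows, and its letters partly overlap those of CAGAC. The far windows were also richer in G and C than lncRNA windows (median 53.0%, against 48.3%). With 23 windows these shares are a description, and motifs around the other far summits were not analysed here.

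A difference in peak calling bears on every comparison with the molar lists. The score, the authors' enrichment value for each peak, had the same lowest value of 3 on all 19 autosomes in both limb lists. In the molar Smad4 list the lowest score was 4 on chromosomes 2, 5, 8, 9, 11 and 19 and 3 on the other 13. Molar pSmad1/5 peaks reached down to a score of 2 on chromosomes 1, 3, 6, 12, 13, 14 and 16 and of 3 on the other 12. The density of far peaks differed with this lowest score, with 2.10 against 11.8 per Mb for molar Smad4 on the chromosomes with lowest scores of 4 and 3, and 14.4 against 3.40 per Mb for molar pSmad1/5 on those with lowest scores of 2 and 3. Molar values are therefore given below for peaks with a score of at least 4, unless stated otherwise. This cut narrows the difference between these chromosome groups but does not remove it. At that score molar Smad4 had 2.10 against 1.55 far peaks per Mb on the chromosomes with lowest scores of 4 and 3. Molar pSmad1/5 had 0.458 against 0.648 per Mb on those with lowest scores of 2 and 3. The cut also keeps unlike shares of the lists, so it is not a common scale between them. It keeps 7575 of 28474 limb Smad4 and 4741 of 21999 limb pSmad1/5 autosomal peaks. For molar Smad4 it keeps 7155 of 30804, and for molar pSmad1/5 3507 of 34048. Between the limb lists another imbalance ran along chromosomes: limb Smad4 had 2.31 peaks for each limb pSmad1/5 peak on chromosome 1 and 2.58 on chromosome 4, against 0.723 to 1.51 on the other 17 autosomes.

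Far limb Smad4 peaks were sparse. The far parts of 2476 deserts made up 34.8% of the sequence between the first and last genes of the autosomes (836 of 2398 Mb) but held 10.6% of the peaks. Their density was 3.61 per Mb (exact Poisson 95% interval 3.48 to 3.74), against 16.3 per Mb (16.1 to 16.5) elsewhere, a ratio of 0.222 (0.213 to 0.230). The same ratio was 0.274 (0.263 to 0.285) for limb pSmad1/5. Among peaks with a score of at least 4 the ratio was 0.142 (0.130 to 0.155) for limb Smad4, 0.172 (0.155 to 0.191) for limb pSmad1/5, 0.464 (0.438 to 0.492) for molar Smad4 and 0.290 (0.263 to 0.320) for molar pSmad1/5. Limb Smad4 thus had the lowest of the 4 ratios in these libraries, with an interval that meets that of limb pSmad1/5 at its edge and lies below those of both molar lists. Depth is unknown for every library, and the score cut keeps unlike shares of the lists.

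Far peaks were also lower and narrower than the other limb Smad4 peaks. Their median score was 3.43 (quartiles 3.18 and 3.82), against 3.57 (3.25 and 4.07) for the remaining 25449 peaks, and the highest far score was 13.51, against 28.7 among the others. A score of at least 4 was reached by 17.8% of far peaks and by 27.7% of the others, beside 26.6% of all autosomal limb Smad4 peaks. The median width was 54 bp for far peaks and 58 bp for the others.

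The summits lay a median of 121 kb from the nearest gene (quartiles 76.9 and 217 kb), and 156 of them (5.16%) lay over 500 kb away. The peaks just inside the limit were near Med10 (50005 bp, score 3.599), Rbpj (50053 bp, 4.13) and Adamts16 (50061 bp, 3.04), and those just outside near Tns3 (49972 bp, 3.30), Tle3 (49971 bp, 3.52) and Ier5 (49948 bp, 3.03). Density fell with distance. It was 6.68 per Mb at 50 to 100 kb, 4.59 at 100 to 250 kb, 2.35 at 250 to 500 kb, 0.884 at 500 to 1000 kb and 0.548 (0.384 to 0.759) beyond 1000 kb. Limb pSmad1/5 had 5.83 per Mb in the nearest class and 0.579 (0.409 to 0.794) in the farthest.

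**Figure D1:**
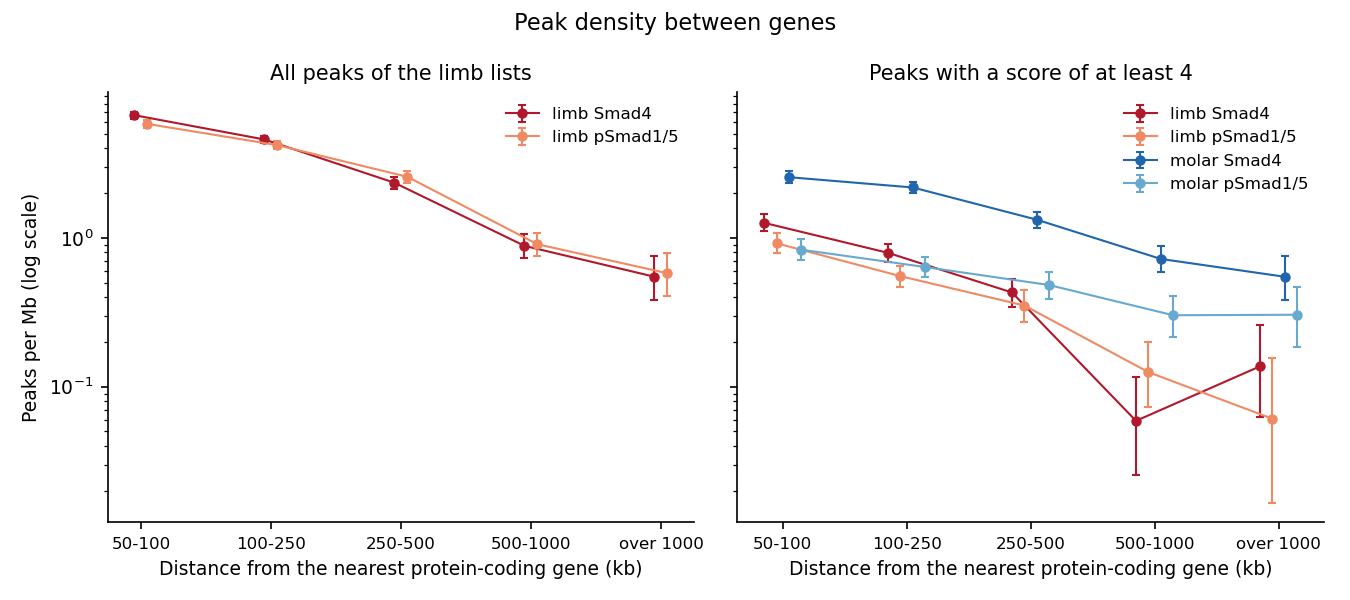
Called peaks per Mb of sequence (log scale) by distance from the nearest protein-coding gene in kb, for all peaks of both limb lists on the left and for peaks with a score of at least 4 in all 4 lists on the right. Points are single libraries and bars are exact Poisson 95% intervals. On the left, limb Smad4 has 6.68 per Mb at 50 to 100 kb and 0.548 per Mb beyond 1000 kb, and limb pSmad1/5 has 5.83 and 0.579 per Mb in the same classes.

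Density also fell with the length of the desert. Deserts of 100 to 200 kb had 9.35 far limb Smad4 peaks per Mb (8.47 to 10.3), and those of 2000 to 5000 kb had 0.731 (0.618 to 0.859). Within deserts of 200 to 500 kb the density was 7.21 per Mb (6.63 to 7.82) at 50 to 100 kb from a gene and 6.59 (6.06 to 7.15) at 100 to 250 kb, and these intervals overlap. Within deserts of 500 to 1000 kb it was 4.84, 4.69 and 4.01 per Mb at 50 to 100, 100 to 250 and 250 to 500 kb. In deserts over 1000 kb it was 2.76, 2.09, 1.43 and 0.775 per Mb at 50 to 100, 100 to 250, 250 to 500 and over 500 kb. The fall with distance was thus larger in this class than in the shorter ones. This class joins deserts of 1000 to 2000 kb (1.84 per Mb) with those of 2000 to 5000 kb (0.731 per Mb), so distance and desert length are not separated within it. By side, density was 3.36 per Mb (3.16 to 3.56) where the nearest gene faced the peak with its 5′ end and 3.79 (3.57 to 4.01) where it faced it with its 3′ end, and 725 far peaks had a nearest gene of unlisted strand.

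The peaks were unevenly spread over deserts. Of 2476 deserts, 1073 (43.3%) held at least 1 far limb Smad4 peak, 353 held at least 3 and 171 at least 5. At least 10 peaks were found in 43 deserts (1.74%). At a score of at least 4, which 537 of the 3025 far peaks reach, 0 deserts held at least 10 far peaks. The count was also 0 when distance was taken from every RefSeq gene, lncRNA genes included, where 2.38% of peaks were far. The limit of 10 was not lowered for these smaller sets, so the counts of 0 do not show which peaks the 43 deserts depend on. Of the 43 deserts, 3 held no far limb Smad4 peak with a score of at least 4. These 43 peak-rich deserts held 636 far peaks, 21.1% of those inside deserts, in 2.83% of the far sequence, with 26.9 peaks per Mb. The deserts were picked by this count, so the density is a description. The same 43 deserts held 15.8% of the far limb pSmad1/5 peaks. Among far peaks with a score of at least 4 they held 25% for limb Smad4, 16.0% for limb pSmad1/5, 11.5% for molar Smad4 and 7.22% for molar pSmad1/5. Limb Smad4 peaks were themselves counted in picking the deserts, so the limb Smad4 share cannot be ranked against the other lists.

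The richest desert lay on chromosome 5 between Mn1, a transcriptional coactivator gene, and Cryba4, which encodes a crystallin of the lens (chr5:111457031-112246491). It held 34 far limb Smad4 peaks in 689 kb, or 49.3 per Mb (34.2 to 68.9), and 37 far limb pSmad1/5 peaks. At a score of at least 4 it held 8 limb Smad4, 4 limb pSmad1/5, 4 molar Smad4 and 2 molar pSmad1/5 peaks. Both limb lists were thus dense in the same desert, and 1 of the 34 Smad4 peaks overlapped a pSmad1/5 peak.

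Next came the desert between Matn1, which encodes the cartilage matrix protein matrilin-1, and Ptpru, a receptor tyrosine phosphatase gene (chr4:130955477-131768456). It held 29 far limb Smad4 peaks, or 40.7 per Mb, and 8 far limb pSmad1/5 peaks. At a score of at least 4 the counts were 7 limb Smad4, 2 limb pSmad1/5, 6 molar Smad4 and 1 molar pSmad1/5. It lies on the chromosome with the highest excess of limb Smad4 over limb pSmad1/5 peaks.

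The desert between the ribosomal protein gene Rps24 and Zmiz1, a gene of a PIAS-like transcriptional coregulator, on chromosome 14 also held 29 far limb Smad4 peaks (33.7 per Mb), with 24 limb pSmad1/5 peaks. At a score of at least 4 it had 6 limb Smad4, 5 limb pSmad1/5, 6 molar Smad4 and 3 molar pSmad1/5 peaks. Peaks of all 4 lists thus fell there, as in the Mn1 and Matn1 deserts. The desert beside Foxl1 on chromosome 8 was shorter and denser, with 24 limb Smad4 peaks in 300.1 kb (79.97 per Mb) and 22 limb pSmad1/5 peaks. Its counts at a score of at least 4 were 7 limb Smad4, 8 limb pSmad1/5, 5 molar Smad4 and 1 molar pSmad1/5. Foxl1 encodes a forkhead factor of mesenchyme, and the desert on the other side of the nearby gene Foxf1, a forkhead gene of lateral mesoderm, held 15 limb Smad4 peaks (65.9 per Mb) and 17 limb pSmad1/5 peaks.

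**Figure D2:**
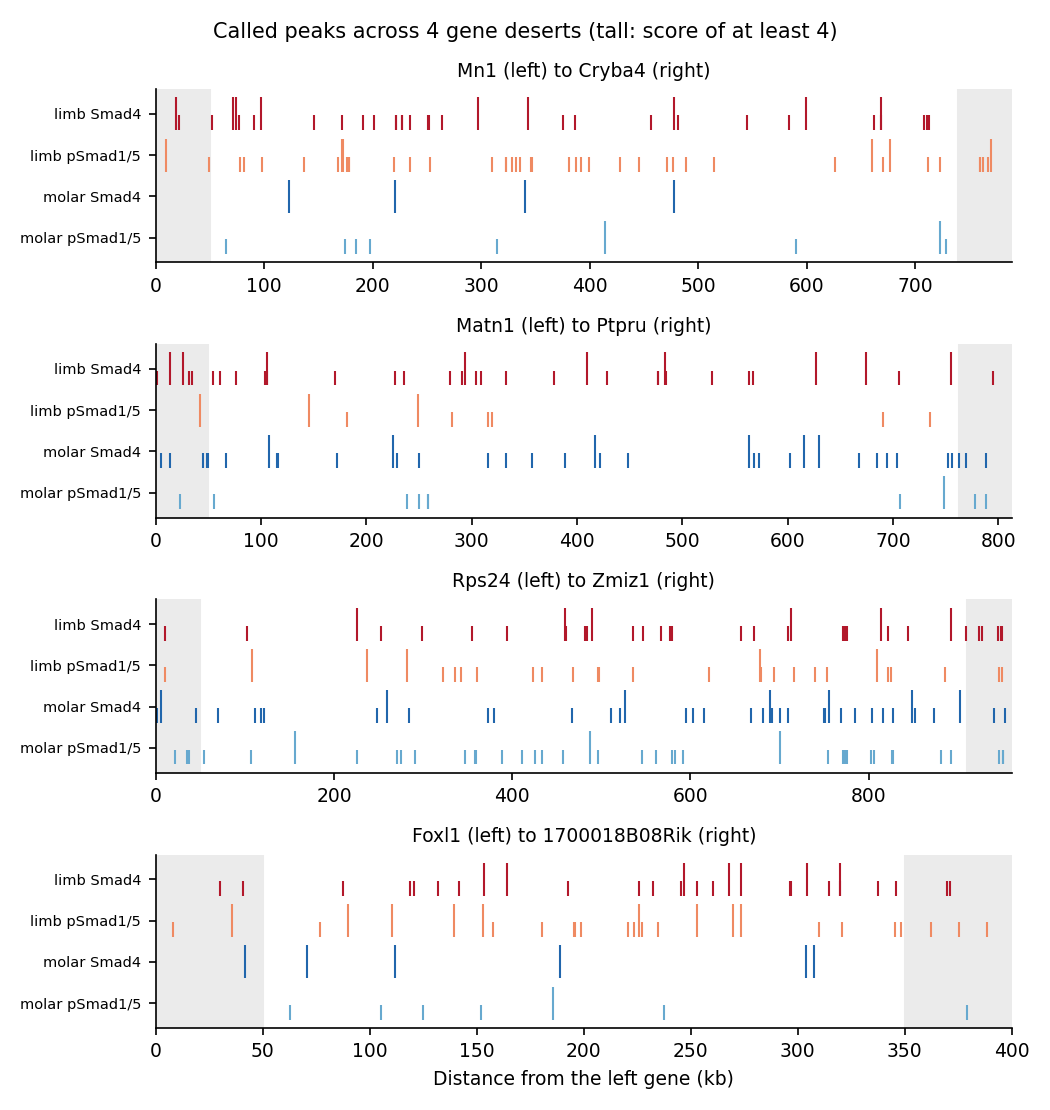
Positions of called peaks across the 4 deserts with the most far limb Smad4 peaks, as distance in kb from the gene on the left, with the 50 kb next to each gene shaded. Tall marks are peaks with a score of at least 4 and short marks are lower peaks. The Mn1 to Cryba4 desert holds 34 far limb Smad4 and 37 far limb pSmad1/5 peaks, and the molar Smad4 list has no short marks there because its lowest score on chromosome 5 was 4.

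The other 6 of the 10 richest deserts were flanked by genes of varied kinds. Cdh26, a cadherin gene, and 4930591A17Rik on chromosome 2 enclosed 23 far limb Smad4 and 21 limb pSmad1/5 peaks. Sall3, a zinc finger gene active in the limb bud, and Galr1, a galanin receptor gene, on chromosome 18 enclosed 22 limb Smad4 and 16 limb pSmad1/5 peaks in the longest of the 10 far parts, 1305 kb. At a score of at least 4 that desert had 4 limb Smad4 peaks, against 10 of molar Smad4. Over all deserts the far peaks at that score numbered 536 and 1423, so the molar excess is not particular to this desert. The desert between Gm6569 and Adgrb1, an adhesion receptor gene, on chromosome 15 had more limb pSmad1/5 peaks (27) than limb Smad4 peaks (20). Nphp4, a gene of the primary cilium, and Ajap1, a gene of adherens junctions, on chromosome 4 enclosed 19 limb Smad4 and 7 limb pSmad1/5 peaks. On chromosome 12, the desert from the kinesin-family gene Kif26a to A530016L24Rik had 18 limb Smad4 and 11 limb pSmad1/5 peaks. The desert between the imprinted genes Rtl1 and Dio3, with Dio3 encoding a deiodinase that inactivates thyroid hormone, had 18 limb Smad4 and 15 limb pSmad1/5 peaks.

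**Figure D3:**
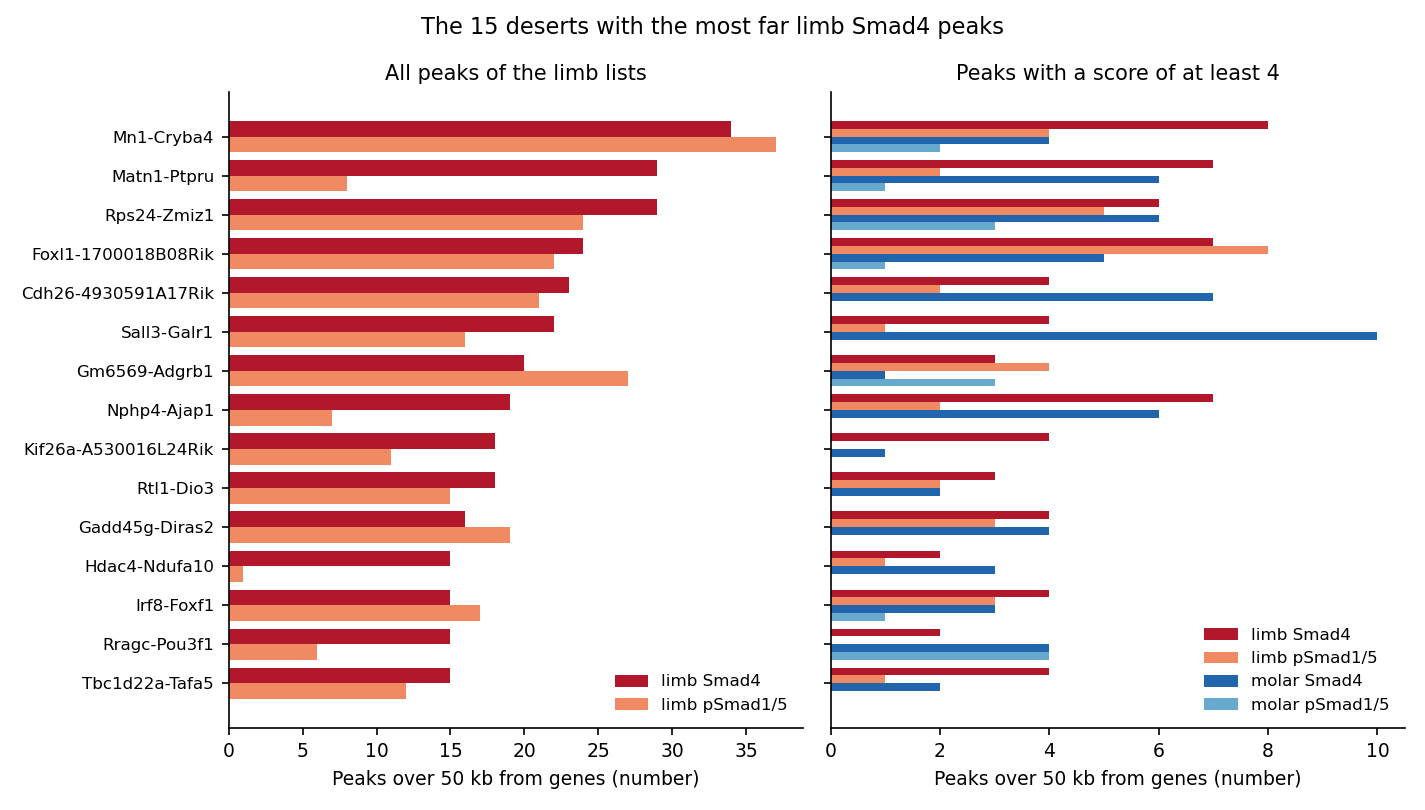
Number of peaks over 50 kb from genes in the 15 deserts with the most far limb Smad4 peaks, named by their flanking genes, for all peaks of the limb lists on the left and for peaks with a score of at least 4 in all 4 lists on the right. Bars are single libraries with no error. The Hdac4 to Ndufa10 desert has 15 limb Smad4 peaks and 1 limb pSmad1/5 peak, and the Mn1 to Cryba4 desert has 34 limb Smad4 and 37 limb pSmad1/5 peaks.

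By density, the leading peak-rich desert lay between Cd82, a tetraspanin gene, and Alx4, a homeobox gene that limits Shh expression to the posterior limb bud, with 10 far limb Smad4 peaks in 79.5 kb (126 per Mb, 60.3 to 231) and 8 limb pSmad1/5 peaks. The desert between the zinc finger gene Zbtb40 and Wnt4, a Wnt ligand gene of developing joints, followed with 14 limb Smad4 peaks (109 per Mb, 59.4 to 182) and 1 limb pSmad1/5 peak. Hdac4, whose product restrains cartilage cell hypertrophy, and Ndufa10, a gene of mitochondrial complex I, enclosed 15 limb Smad4 peaks (104 per Mb) and 1 limb pSmad1/5 peak. The desert beside Kif26a had 86.7 per Mb. Cebpb, a bZIP factor gene, and the tyrosine phosphatase gene Ptpn1 enclosed 12 limb Smad4 peaks (85.5 per Mb) and 14 limb pSmad1/5 peaks. The intervals of these 5 densities overlap, so their order is not set.

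Some peak-rich deserts thus held many limb Smad4 and few limb pSmad1/5 peaks, and most of these lay on chromosomes 1 and 4. In 12 of the 43 deserts the limb Smad4 count was at least 3 times the limb pSmad1/5 count. The 43 were picked by their limb Smad4 count alone, which favours such an excess, and the share over all deserts was not counted. Of those 12 deserts, 8 lay on chromosomes 1 and 4, which hold 11 of the 43. They include Gli2, a transcription factor gene of hedgehog signalling, to Inhbb, which encodes the beta subunit of activin B, with 14 limb Smad4 peaks and no limb pSmad1/5 peak. Since the whole of these chromosomes had more limb Smad4 than limb pSmad1/5 peaks, the desert and its chromosome cannot be told apart there. Elsewhere the pattern was seen on chromosome 13 beside Msx2, a homeobox gene induced by BMP, with 13 limb Smad4 and 3 limb pSmad1/5 peaks, and in the deserts Klf14 to Mkln1, Zfp64 to Tshz2 and Maf to Dynlrb2. These 4 deserts were picked out after their values were seen.

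Within deserts some of the peaks stood close together, but most did not. A neighbouring far limb Smad4 summit lay within 1 kb for 6.63% and within 10 kb for 26.6% of far peaks, against 4.80% and 22.6% for far peaks of the limb pSmad1/5 list. Joining summits up to 10 kb apart gave 95 clusters of at least 3 peaks, which held 344 far peaks (11.4%). The 2 largest, of 8 peaks each, lay between Arap3 and Pcdh1 on chromosome 18 over 33.1 kb and between Zbtb40 and Wnt4 over 30.8 kb. A cluster of 7 peaks spanned 16.0 kb in the desert beside Vegfa, the gene of the main growth factor of blood vessels, on chromosome 17. The widths given are from first to last summit.

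The lists of genes flanking deserts are considered next. Protein-coding genes flanking a desert with at least 1 far limb Smad4 peak numbered 1920 of 20560 (9.34%), and 331 (1.61%) flanked a desert with at least 5. Genes of 10 lists for limb development, signalling and the tissues of the limb were compared with this background. Developmental genes tend to stand beside deserts at all, since 44 of 71 limb patterning genes flank one, against 4070 of all 20560 genes. Density per Mb, and density relative to that of all deserts of the same length class, are therefore given beside the counts. Lists overlap in members, and neighbouring members share a desert. The lists were chosen with earlier results of these data known, so their densities are descriptions.

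Limb patterning genes flanked a desert with a far limb Smad4 peak in 34 of 71 cases (47.9%), and in 16 cases one with at least 5. Their deserts had 6.88 far peaks per Mb (5.91 to 7.97), against 3.61 over all deserts, and 1.74 times (1.497 to 2.02) the density of deserts of like length. Without the Sall3 to Galr1 desert this factor was 1.57 (1.33 to 1.83), and without chromosomes 1 and 4 it was 1.86 (1.59 to 2.16). Limb pSmad1/5 gave 1.502 (1.27 to 1.77). Limb patterning deserts were thus denser than their length class in both limb lists.

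Among the members, Sall3 led with 22 far limb Smad4 peaks, ahead of Msx2 with 13. Alx4, Cyp26b1 and Tbx3 each had 10. Cyp26b1, whose enzyme degrades retinoic acid in the distal limb bud, had 10 limb Smad4 and 10 limb pSmad1/5 peaks in its desert with Dysf. Tbx3, a T-box gene of the limb margins, had 10 limb Smad4 and 15 limb pSmad1/5 peaks. The desert between Shh, the ligand that patterns the digits, and Rnf32 held 8 limb Smad4 and 7 limb pSmad1/5 peaks. Irx3 and Irx5, Iroquois homeobox genes of the early limb bud, enclosed 8 limb Smad4 and 7 limb pSmad1/5 peaks, and another 8 lay between Irx5 and Irx6. Meis1, a homeobox gene of the proximal limb, and Bmp7, a BMP ligand gene, each had 7 limb Smad4 peaks on 1 side.

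Genes known as targets of BMP and Smads flanked a desert with a far limb Smad4 peak in 15 of 35 cases (42.9%), in 7 of them with at least 5 peaks. Their deserts had 8.32 per Mb (6.72 to 10.2), or 2.27 times (1.83 to 2.78) the density of like-length deserts, and 2.06 times (1.64 to 2.56) without the desert of Msx2. Limb pSmad1/5 gave 2.05 (1.62 to 2.55). The desert of Id2, which encodes an inhibitor of differentiation and is a classical BMP target, held 11 limb Smad4 and 14 limb pSmad1/5 peaks. Sox9, the master regulator of cartilage, had 9 limb Smad4 and 3 limb pSmad1/5 peaks in its desert with Slc39a11, and the deserts of Hes1 and Unc5b held 8 limb Smad4 peaks each. Msx1, the paralogue of Msx2, had 7 limb Smad4 peaks and 1 limb pSmad1/5 peak.

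The cartilage and joint list gave 18 of 42 genes (42.9%) with a far limb Smad4 peak, 5 of them with at least 5 peaks, and 7.16 per Mb (5.77 to 8.78). Its density was 1.74 times (1.40 to 2.13) that of like-length deserts, but the value rested on chromosome 4. Matn1 with 29 peaks, Wnt4 with 14 and Runx3, a factor of cartilage maturation, with 5 all lie there. Without the Matn1 desert the factor was 1.27 (0.973 to 1.62), and without chromosomes 1 and 4 it was 0.916 (0.652 to 1.25). Limb pSmad1/5 gave 1.01 (0.747 to 1.33). Fgf18, a growth factor gene of the growth plate, had 7 limb Smad4 and 7 limb pSmad1/5 peaks.

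Genes of the BMP pathway itself encode its ligands, receptors, Smads and antagonists. In this list 10 of 42 genes (23.8%) flanked a desert with a far limb Smad4 peak, and Bmp7 alone flanked one with at least 5. The density of 3.15 per Mb (2.21 to 4.37) was 1.03 times (0.718 to 1.42) that of like-length deserts. For limb pSmad1/5 this factor was 0.692 (0.439 to 1.04). The antagonist gene Nog had 4 far limb Smad4 peaks in 108 kb, Bambi, a decoy receptor gene, had 4, Gdf6, a ligand gene of joints, had 4, and Rgma, a co-receptor gene, had 4. Bmp2, the ligand gene between long deserts, had 2 far peaks on the side of Fermt1 and 1 on the side of Hao1.

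Developmental transcription factors gave 81 of 125 genes (64.8%) with a far limb Smad4 peak, 27 with at least 5, and 1.47 times (1.32 to 1.63) the density of like-length deserts. For limb pSmad1/5 this factor was 1.43 (1.28 to 1.58). Besides members of the lists above, Foxf1 and Pou3f1 had 15 far limb Smad4 peaks each, and Irx2 and Irx4 shared a desert with 13. Genes of neuronal adhesion and guidance went the other way. Of these, 52 of 77 (67.5%) flanked a desert with a far peak, yet their long deserts had 0.863 per Mb (0.721 to 1.03), or 0.530 times (0.443 to 0.630) the density of deserts of like length. Limb pSmad1/5 gave 0.554 (0.465 to 0.656) for the same deserts. Their leading member was Cntnap5a, with 7 limb Smad4 peaks in 3720 kb.

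The lists for the other tissues of the limb were short. Muscle precursor genes gave 8 of 21 with a far limb Smad4 peak and 1.02 times (0.620 to 1.57) the like-length density, and limb pSmad1/5 gave 0.536 times (0.257 to 0.986). Endothelial genes gave 4 of 22 and 1.12 times (0.596 to 1.91), led by Kdr, a receptor gene of blood vessels, and Cdh5, a cadherin gene of blood vessels, with 5 peaks each, and limb pSmad1/5 gave 1.76 times (1.06 to 2.75). Skin epithelium genes gave 7 of 20 and 2.33 times (1.53 to 3.38), with 7 peaks beside Tfap2c, shared with Bmp7, and 7 beside Klf4. Without the Tfap2c to Bmp7 desert this was 1.97 (1.20 to 3.04). Limb pSmad1/5 gave 1.22 times (0.649 to 2.08) for the skin list, and without chromosomes 1 and 4 the factor was 1.90 (1.10 to 3.04) for limb Smad4 and 0.690 (0.253 to 1.503) for limb pSmad1/5. Blood genes gave 2 of 14 and 2.29 times (1.14 to 4.10), with 8 peaks beside Runx1, which is also active in skeletal tissue, and 1.62 (0.335 to 4.75) without that desert. With the Runx1 desert included, limb pSmad1/5 gave 2.31 times (1.15 to 4.13) for the blood list. The cells that carried the peaks were not told apart in whole tissue.

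**Figure D4:**
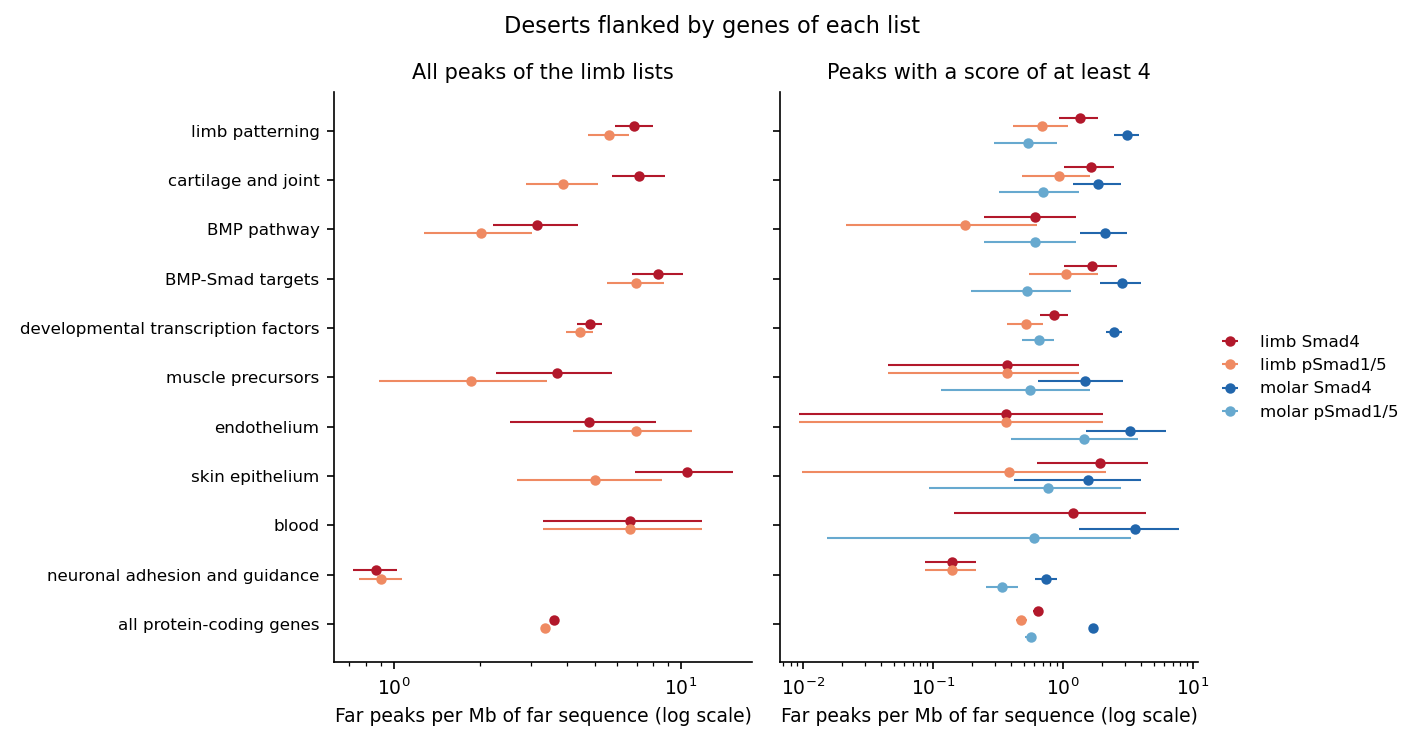
Far peaks per Mb of far sequence (log scale) in deserts flanked by members of each list, for all peaks of the limb lists on the left and for peaks with a score of at least 4 in all 4 lists on the right. Points are single libraries and bars are exact Poisson 95% intervals, and a list with no peak has no point. On the left, limb Smad4 has 6.88 per Mb for limb patterning genes, 0.863 for neuronal adhesion and guidance genes and 3.61 over all deserts.

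Values at a score of at least 4 are given here for all 4 lists. This score is not a common scale between lists, so each value is to be read against that over all deserts in its own list. Limb patterning deserts had 1.35 limb Smad4 peaks per Mb (0.937 to 1.87), against 0.641 over all deserts. They had 0.692 (0.410 to 1.09) against 0.479 for limb pSmad1/5, 3.11 (2.47 to 3.87) against 1.70 for molar Smad4 and 0.538 (0.294 to 0.903) against 0.564 for molar pSmad1/5. The intervals of limb pSmad1/5 and molar pSmad1/5 cover the value over all deserts. BMP target deserts had 1.68 limb Smad4, 1.06 limb pSmad1/5, 2.83 molar Smad4 and 0.531 molar pSmad1/5 peaks per Mb. Neuronal adhesion and guidance deserts had 0.141 limb Smad4, 0.141 limb pSmad1/5, 0.743 molar Smad4 and 0.341 molar pSmad1/5 peaks per Mb. These densities are not set against desert length, and neuronal deserts are long, with a median far part of 962 kb against 128 kb over all deserts. Over all called peaks, whose lowest score differs between chromosomes in that list, molar pSmad1/5 had 0.965 times (0.906 to 1.03) the like-length density beside neuronal genes and 1.30 times (1.15 to 1.46) beside limb patterning genes. The differences between lists carry no test.

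The far peak with the highest score (13.51) lay between Tcp10c and Tcte2, 164318 bp from Tcte2, in the t-complex region of chromosome 17. It overlapped a limb pSmad1/5 peak with a score of 12.2, the highest far score in that list. The next were nearest to Fam174a (9.43), Cwc22, a splicing factor gene (7.96), Gm51965 (7.10), Baiap2l1 (6.99), Foxl1 (6.77), Shq1 (6.69), Gm5148 (6.64), Dio3 (6.52) and Maip1 (6.42). Of these 10 peaks, 2, near Foxl1 and Dio3, lay in deserts with at least 10 far peaks, which hold 21.1% of all far peaks inside deserts.

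Far limb Smad4 peaks overlapped limb pSmad1/5 peaks less than other limb Smad4 peaks did. By at least 1 bp, 52 of 3025 far peaks overlapped one (1.72%, 1.29 to 2.25), against 1036 of 25449 others (4.07%, 3.83 to 4.32) and 3.82% of all. For the molar pSmad1/5 list it was 21 far peaks (0.694%, 0.430 to 1.06), against 652 others (2.56%, 2.37 to 2.76) and 2.36% of all. For the molar Smad4 list it was 12 far peaks (0.397%, 0.205 to 0.692), against 122 others (0.479%, 0.398 to 0.572) and 0.471% of all, and these intervals overlap. The molar counts here use all called peaks. Far peaks had lower scores and lay in sequence with fewer peaks of the other lists, and the part of either in the lower overlap was not tested.

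**Figure D5:**
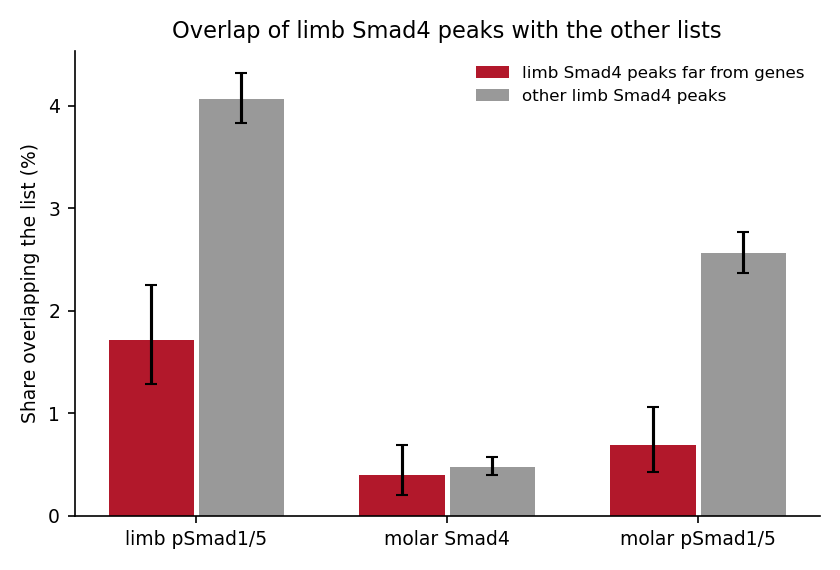
Share of far limb Smad4 peaks (left bars) and of the other limb Smad4 peaks (right bars) that overlap a peak of each other list by at least 1 bp, in percent. Bars are single libraries with exact binomial 95% intervals. For limb pSmad1/5 the shares are 1.72% of far peaks and 4.07% of the others.

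Of the 52 far peaks shared with limb pSmad1/5, the 10 with the highest limb Smad4 scores are named here. After the peaks near Tcte2 and Gm51965, they were near Aipl1 (5.64), Adam6b (5.53), Foxf1 (5.01), Irx1 (4.62), Kcnrg (4.57), Irx3 (4.43), Slc22a12 (4.37) and Slc16a7 (4.35). The peak near Foxf1 lay 98046 bp from the gene, within a cluster of 6 limb Smad4 peaks over 25.8 kb that also held 3 limb pSmad1/5 peaks. The peak beside Irx1 lay 329003 bp from the gene and also overlapped a molar pSmad1/5 peak. It was 1 of 2 far peaks shared with 2 other lists, and the other, near Supt20, overlapped both molar lists. No far peak was shared with all 3.

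Densities over whole deserts were compared as well. Over 1376 deserts with at least 100 kb of far sequence, the density of far limb Smad4 peaks had a Spearman correlation of 0.51 with that of limb pSmad1/5. At a score of at least 4 it was 0.32 with limb pSmad1/5, 0.24 with molar Smad4 and 0.14 with molar pSmad1/5. The deserts share base composition, length and local gene content across lists, so these are descriptions.

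Far from protein-coding genes, many peaks lay inside annotated lncRNA genes. Of the far limb Smad4 peaks inside deserts, 684 (22.7%, 21.2 to 24.2) lay in an lncRNA gene body, while these bodies cover 11.8% of the far sequence. The share was 20.3% (18.8 to 21.8) for limb pSmad1/5. Over all called peaks it was 17.3% (16.4 to 18.1) for molar Smad4 and 15.6% (14.7 to 16.5) for molar pSmad1/5, so all lists lay above the share of sequence. These shares are not adjusted for distance from protein-coding genes or for desert length, with which peak density fell. In all, 491 lncRNA genes held at least 1 far limb Smad4 peak, out of 12324 considered. How many of the 12324 reach far sequence, and so could hold one, is not given here. The highest counts were in Gm33655, in the desert beside the forkhead gene Foxd2, with 11, and Gm36894, beside Kif26a, with 10. Gm46607, beside Vegfa, held 8 peaks in 36.9 kb, Zmiz1os1, beside Zmiz1, held 8 and Gm30093, between Arap3 and Pcdh1, held 8. In the desert of Sox9, 2610035D17Rik held 7 of the 9 far limb Smad4 peaks.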

How the data were processed

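Peak lists of 4 ChIP-seq libraries from embryonic mouse limb and molar were used. Per the labels, BCP was run by the authors in the mode meant for transcription factors, and 1 list per library was deposited, with position, length, summit, enrichment score and p-value of each peak. The deposited score is the authors' own value and served to rank or filter peaks within a list, and the deposited p-value was not used. The submitters' processing notes name the build mm10 and Bowtie2, SAMtools, bedtools, deepTools and bcl2fastq without versions or roles. Use of the inputs, duplicate handling and problem regions are not given in the sources used here. The lists hold no read counts, so depth is unknown.

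Gene positions came from the RefSeq table of GRCm38.p6, whose primary chromosomes carry mm10 coordinates. There were 20560 autosomal protein-coding genes after 105 with coordinates below 3 Mb, which are those of scaffolds, were left out, together with 3 limb Smad4 peaks on chromosome 4. Strand came from the promoter table where listed. Deserts, densities, overlaps (at least 1 bp) and exact 95% intervals were computed in Python 3.11.15 with pandas 2.3.3, numpy 2.4.6 and scipy 1.17.1, after the steps were tested on simulated data, and drawn with matplotlib 3.10.9. Like-length density compares deserts with all deserts of 100 to 200, 200 to 500, 500 to 1000, 1000 to 2000 or 2000 to 5000 kb. No genome sequence was used, so the planned motif count around summits was not run.

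Named genes are those flanking the 10 deserts with the most far peaks and the 5 densest with at least 10, those nearest the 10 top-scoring far and shared peaks and the 3 peaks on each side of 50 kb, and up to 10 members of the limb patterning, cartilage and BMP lists with at least 5 far peaks. Any further gene was named with its values already known. The members and gene lists were chosen with earlier results of these data known. Alternatives changed the distance, gene set, peak position, score threshold, overlap, spacing and count needed. Scaffold genes kept and chromosomes 1 and 4 left out were added after seeing the data, as were the molar comparisons at a score of at least 4.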

Additional observations from a re-analysis of the deposited data

Results flagged for a closer look

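Peaks outside the autosomes were left out by the rule that chose the far peaks. The same distance rule applied to chromosome X gave 367 far limb Smad4 peaks of 1239 (29.6%), beside 365 of 1346 for limb pSmad1/5, 1140 of 3713 for molar Smad4 and 435 of 1411 for molar pSmad1/5. On chromosome Y it gave 16 of 38 (42.1%) for limb Smad4. The limb Smad4 list also holds 2 peaks on the mitochondrial genome, and limb pSmad1/5 holds 2. The lowest limb Smad4 score was 2 on chromosome X and 1.01 on chromosome Y, against 3 on the autosomes, so these shares are not comparable with the autosomal 10.6%.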

How the results depend on the processing

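With far set at over 25, 100 or 250 kb, the share of limb Smad4 peaks far from genes was 15.6%, 6.36% and 2.12%, and the density ratio of far to other sequence was 0.257, 0.181 and 0.111, while the overlap with limb pSmad1/5 at 250 kb was 0.992%. Against every RefSeq gene, lncRNA genes included, 2.38% of peaks were far, the ratio was 0.138 and 0 deserts held at least 10 far peaks. Without Gm and Rik names 11.1% were far. With a score of at least 4, 7.09% of peaks were far, the ratio was 0.142, 0.931% of far peaks overlapped limb pSmad1/5, 0 deserts held at least 10 far peaks and 19.5% of list genes flanked a desert with a far peak, against 46.1% of them at any score. With summits within 200 bp the overlap was 3.74% for limb pSmad1/5, 1.06% for molar Smad4 and 1.95% for molar pSmad1/5. With an overlap of at least 50% of the peak it was 0.826% for limb pSmad1/5 and 0.331% for molar pSmad1/5. Needing at least 3 or 5 far peaks left 21.9% and 13.47% of list genes. The cause of these shifts was not tested beyond what each setting changes. The other 31 values of the main results stayed within their counting intervals, or within 1.5 times for a count. Among them, 32 deserts held at least 10 far peaks without chromosomes 1 and 4, 39 with summits under 1 kb apart counted once and 47 without Gm and Rik names. The density ratio stayed below 1 in every setting tried. Of 50 values for single gene lists, 21 moved and 29 did not. No paired analysis was possible because each tissue and antibody has 1 library, and no library could be left out for the same reason. Unknown depth limits all comparisons of counts between lists.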

Other observations

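Deserts beside well-known genes of limb development differed in their far limb Smad4 peaks. The deserts on the sides of the HoxD cluster, Atp5g3 to Lnpk and Mtx2 to Gm50595 on chromosome 2, held 2 limb Smad4 and 2 limb pSmad1/5 peaks each, at 3.98 (0.482 to 14.4) and 4.21 (0.5097 to 15.2) limb Smad4 peaks per Mb, against 4.49 over all deserts of 500 to 1000 kb. On chromosome 11, the long desert upstream of Sox9, from Gm11677, held 2 limb Smad4 peaks in 956 kb (2.09 per Mb, 0.253 to 7.56), against 1.84 per Mb over all deserts of 1000 to 2000 kb. On the side of Slc39a11 there were 9 in 357 kb (25.2 per Mb, 11.5 to 47.8), against 6.88 per Mb over all deserts of 200 to 500 kb. Shh had 8 peaks in 626 kb (12.8 per Mb, 5.52 to 25.2), against the same 4.49 per Mb at that length. These deserts were picked by name, not by the rule for named genes.

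Of all deserts, 1403 held no far limb Smad4 peak. The longest of them lay between Slc10a2, an ileal bile acid transporter gene, and Efnb2, an ephrin gene, on chromosome 8, with 3412 kb of far sequence, where limb pSmad1/5 had 4 peaks. Deserts between Slitrk5 and Gpc5 (3309 kb) and between Nr2f1, a nuclear receptor gene, and Arrdc3 (2585 kb) also held none, with 3 and 5 limb pSmad1/5 peaks. The most remote limb Smad4 peak lay 2137 kb from Olfm4 with a score of 4.38, and 36 peaks lay over 1 Mb from any protein-coding gene. At 500 to 1000 kb from genes 6.67% of far peaks had a score of at least 4, and 25% of the 36 beyond 1000 kb did, beside 18.9% at 50 to 100 kb.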
